A study of Arabidopsis thaliana with 27 samples.

Results

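The class IV homeodomain leucine zipper (HD-ZIP IV) genes of Arabidopsis thaliana were followed in sorted leaf mesophyll cells and in root cells. The set was ANTHOCYANINLESS2 (ANL2, AT4G00730), MERISTEM LAYER1 (ATML1, AT4G21750), PROTODERMAL FACTOR2 (PDF2, AT4G04890), GLABRA2 (GL2, AT1G79840), HDG1 (AT3G61150), HDG2 (AT1G05230), HDG5 (AT5G46880), HDG11 (AT1G73360), HDG12 (AT1G17920) and FWA (AT4G25530). These 10 genes were taken by identifier from the 33602 genes of the count tables, and all 10 had at least 1 read in some library.

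HD-ZIP IV proteins are plant transcription factors with a homeodomain for DNA binding, a leucine zipper for pairing and a START domain. Most are best known from the outermost cell layer, where ATML1 and PDF2 are needed for epidermal identity and bind a short promoter element, the L1 box, in front of epidermal genes. Others have narrower roles, GL2 in trichomes and in non-hair cells of the root epidermis, and HDG11 and HDG12 in trichome branching. ANL2 differs in that its mutant loses anthocyanin from the tissue under the epidermis and has a disturbed root organization, and FWA is a gene silenced by DNA methylation in vegetative tissue.

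The 27 libraries formed 9 groups of 3, all from plants 17 d old. Leaf protoplasts came from first true leaves, many leaves to a replicate. In the IQD22 reporter line, in which the IQD22 promoter drives a GUS-mCitrine fusion in the palisade, the palisade group held cells with chlorophyll and mCitrine, and the reference group held cells with chlorophyll and no mCitrine, which can include spongy mesophyll, bundle sheath and other green vascular cells. These palisade and reference groups were made without transcription inhibitors under low light (50 µE), with actinomycin D and cordycepin during protoplasting under low light, and with the same inhibitors after 2 h of high light (300 µE). The enhancer trap line JR11-2, whose GFP is highest in spongy mesophyll, gave a palisade group of green cells without GFP, which holds all non-spongy green cells, and a reference group of green cells with GFP, both without inhibitors in low light. The last group was total root protoplasts of the wild type Col-0, without inhibitors, in low light and not sorted on a reporter. Both leaf lines also had the Col-0 background, the IQD22 reporter by transformation and JR11-2 by repeated introgression. The palisade and reference libraries of a replicate came from the same protoplast pool, 12 pools in all (A to L), and the pool was a term in every comparison between them.

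Libraries held 15074702 to 38792923 counts on genes. Mesophyll markers, among them RBCS1A for the small subunit of Rubisco, summed to 34391 to 45066 CPM (counts scaled to library size) in the inhibitor, low light palisade libraries and 24659 to 28305 in the matching reference libraries, against 10.5 to 11.8 in root, so the leaf labels held. The epidermis markers, by contrast, summed to 2.62 to 11.8 CPM in the 24 leaf libraries and 53.0 to 76.4 in root, and the protodermal marker PDF1 was at 0 in 6 of the 8 leaf groups. Throughout, CPM values are on one TMM scale over all 27 libraries. A gene was called higher or lower when the edgeR quasi-likelihood test gave a false discovery rate (FDR, Benjamini-Hochberg over all genes tested) under 0.05 and a change over 2-fold. Values in bulk libraries cannot tell fewer cells of a type from less RNA per cell.

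ANL2 and HDG1 were the HD-ZIP IV genes of the green leaf cells. ANL2 took between 417 and 4342 reads per leaf library and HDG1 between 123 and 1276, whereas the highest count of any other member in a leaf library was 53, for ATML1. Scaled to exon length, ANL2 and HDG1 together made up 94.7% to 99.5% (median 98.0%) of the 10 genes' summed CPM per kb in the 24 leaf libraries. ANL2 alone made up 85.7% in the inhibitor, low light palisade and 57.7% in the JR11-2 reference, the highest and the lowest group share among leaf groups. In root the pair made up only 51.4% to 65.9%.

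**Figure D1:**
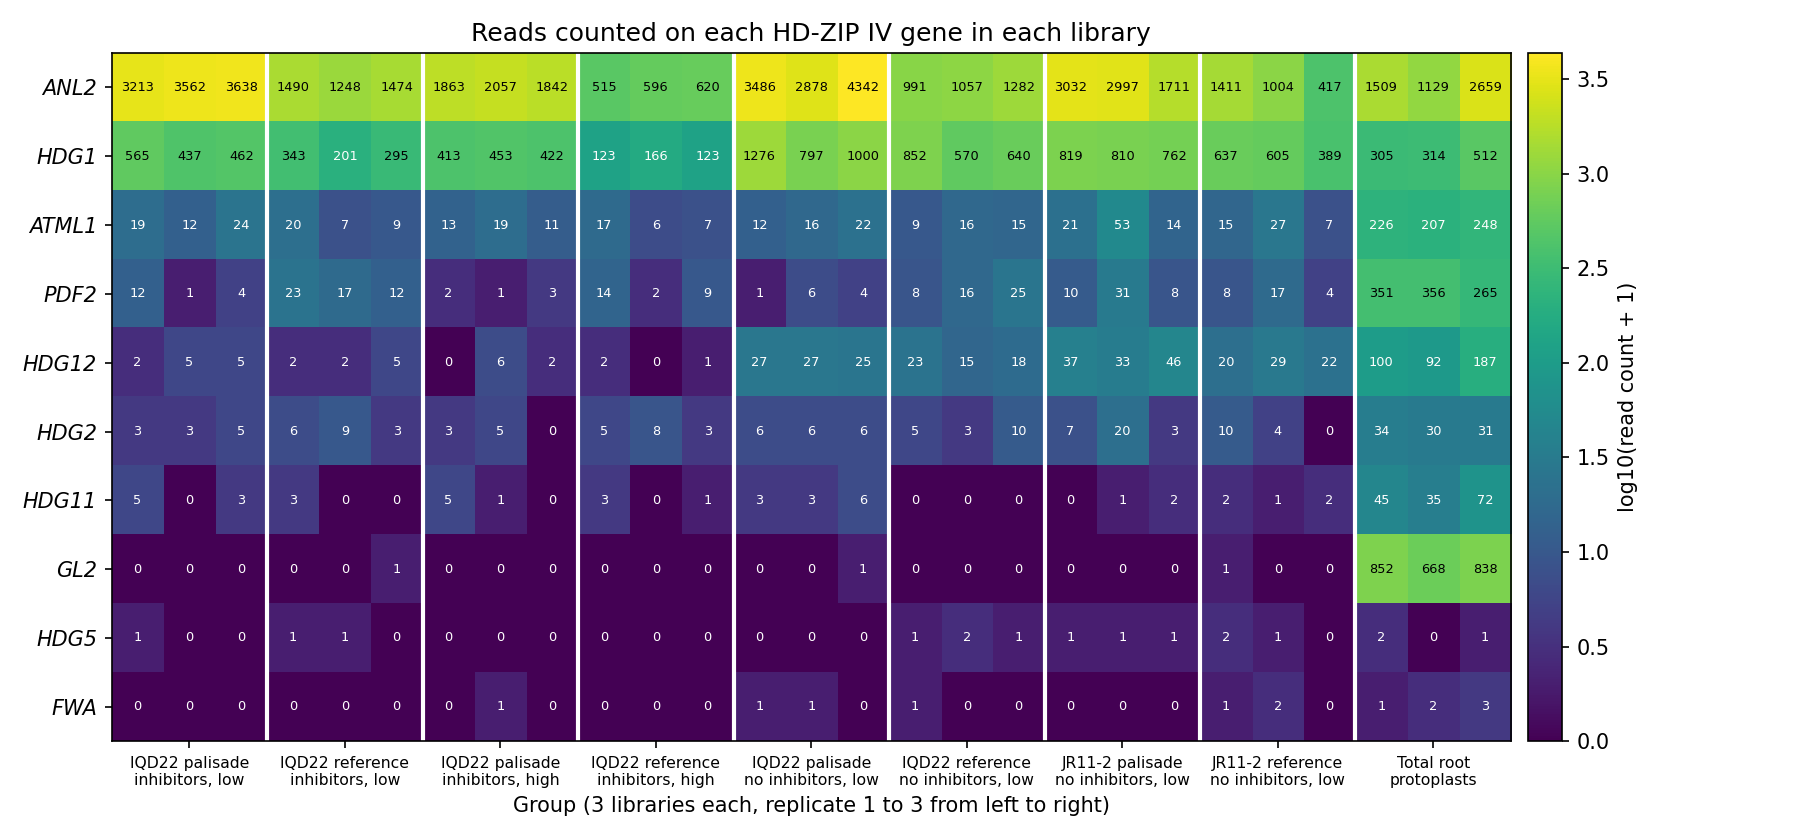
Reads counted on each of the 10 genes (rows) in each of the 27 libraries (columns, 3 per group), with the count printed in each cell and the colour giving log10 of the count plus 1. ANL2 and HDG1 were counted in every library, GL2 had 668 to 852 reads in the root libraries and 3 reads in all leaf libraries together, and HDG5 and FWA stayed at 3 reads or fewer everywhere.

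**Figure D2:**
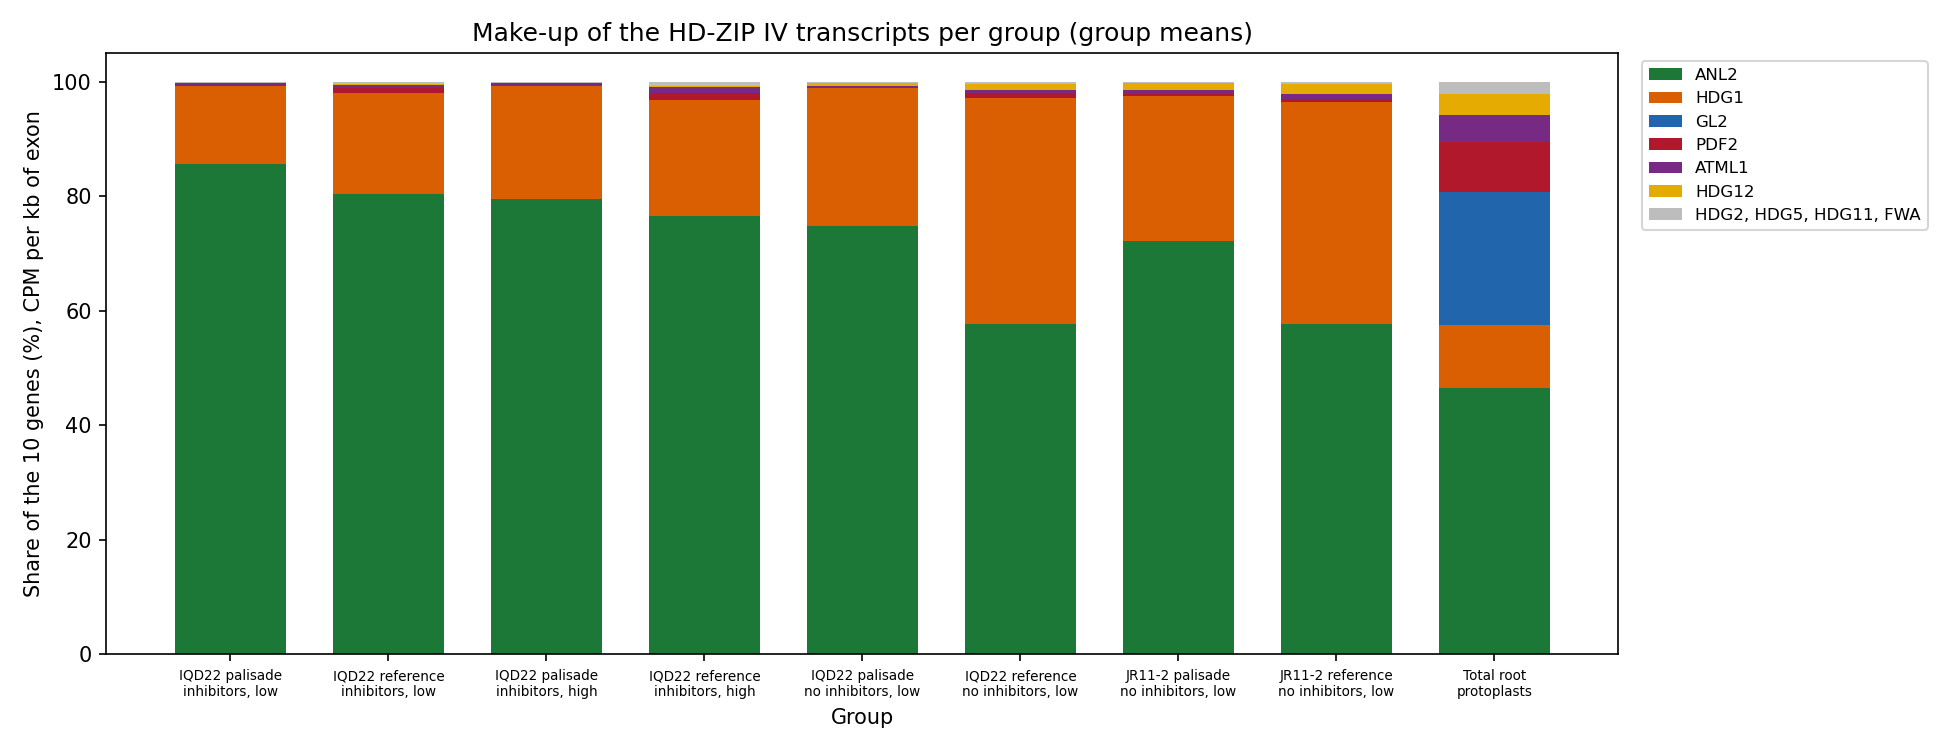
Make-up of the HD-ZIP IV transcripts in the 9 groups, as the share (percent) of each gene in the summed mean CPM per kb of exon. ANL2 (green) and HDG1 (orange) filled nearly all of the 8 leaf bars, while the root bar held 23.2% GL2 and 8.64% PDF2 as well.

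The prominence of ANL2 and HDG1 raised the question whether reads could have been shared between them. Their coding sequences were 70.5% identical over the aligned bases (RefSeq, TAIR10.1), against 84.2% for ATML1 with PDF2 and 80.4% for HDG11 with HDG12. No exon stretch of a member as long as a sequencing read (50 bases) occurred elsewhere in the nuclear genome, and none came within 2 mismatches of another member. The most alike stretches of the ANL2-HDG1 pair and of the ATML1-PDF2 pair are printed because they show how alike each pair is within single exons. The differing bases are in capitals. Stretches across exon junctions, and near matches to genes other than the members, were not searched. They lie in coding exons at chr4:300699-300748 (ANL2, minus strand), chr3:22633743-22633792 (HDG1, plus strand), chr4:11557115-11557164 (ATML1, plus strand) and chr4:2479891-2479940 (PDF2, minus strand) of TAIR10.1.
ANL2: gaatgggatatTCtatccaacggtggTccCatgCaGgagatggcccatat
HDG1: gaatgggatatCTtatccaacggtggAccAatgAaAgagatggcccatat
ATML1: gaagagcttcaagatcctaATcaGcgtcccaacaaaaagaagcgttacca
PDF2: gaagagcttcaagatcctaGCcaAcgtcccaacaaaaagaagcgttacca
The first pair differed at 6 of 50 bases and the second at 3 of 50. GL2, HDG2, HDG12 and FWA overlap a gene on the opposite strand in the RefSeq annotation, and GL2 also overlaps AT1G09927 on its own strand. Counting was strand-specific, so of these only the same-strand overlap of GL2 could take reads from it. That holds only if AT1G09927 was among the genes counted, which was not checked.

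ANL2 was higher in palisade than in reference cells in all 4 comparisons of these cell types. It lies at chr4:299261-304612 on the minus strand. With inhibitors in low light it measured 239, 237 and 214 CPM in the 3 palisade libraries and 63.0, 65.0 and 71.4 CPM in their reference partners. The lowest palisade library was thus well above the highest reference library. The log2 fold change was 1.65 ± 0.08 (SE, n = 3 pools, edgeR FDR = 3.51e-12). Without inhibitors the palisade libraries read 171, 153 and 191 CPM and the reference libraries 42.5, 53.1 and 54.3 CPM, again without overlap (log2 fold change 1.74 ± 0.10, edgeR FDR = 8.52e-10). After high light the values were 141, 124 and 134 CPM against 35.2, 33.2 and 33.2 CPM (log2 fold change 1.91 ± 0.07, edgeR FDR = 6.71e-21). Here too the groups did not overlap, and ANL2 was lower in both than in low light. In JR11-2, sorted with a different reporter, ANL2 read 141, 121 and 88.6 CPM in palisade and 57.7, 41.1 and 27.6 CPM in reference libraries (log2 fold change 1.48 ± 0.07, edgeR FDR = 2.83e-11). Both JR11-2 groups spread widely, and the libraries of pool F were the lowest of each; without the pool term the change was no longer called (edgeR FDR = 0.0961). Within pools, the palisade level was 2.44 to 4.04 times the reference level, in 12 of 12 pools. Markers of phloem and bundle sheath moved with these sorts: they summed to 1.40 to 4.75 CPM in palisade and 35.3 to 54.5 CPM in reference libraries with inhibitors in low light, 3 of 3 called lower, and to 26.6 to 35.0 against 34.0 to 51.0 CPM in JR11-2, 1 higher and 1 lower of 3, with 0 of them at 0. Trichome markers summed to 2.86 to 4.75 against 0.776 to 1.20 CPM with inhibitors in low light, 1 of 2 tested higher, MYB106 and ETC1 being at 0 in palisade. Most of that sum was TRY (3.33 against 0.711 CPM). GL1 read 0.167 against 0.183 CPM (log2 fold change -0.28, edgeR FDR = 0.856), near the floor of 3 counts per library. Of all genes tested 2.13% were higher and 5.56% lower in palisade with inhibitors in low light. In JR11-2 these shares were 0.714% and 1.44%. The authors had already listed ANL2 among the genes higher in their sorted palisade cells. Their ANL2 promoter reporter, however, was seen in trichomes, without localized palisade signal. They gave missing regulatory elements, weak expression or contaminating cells as possible reasons. The part of phloem, bundle sheath or trichome cells in the ANL2 difference was not tested.

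**Figure D3:**
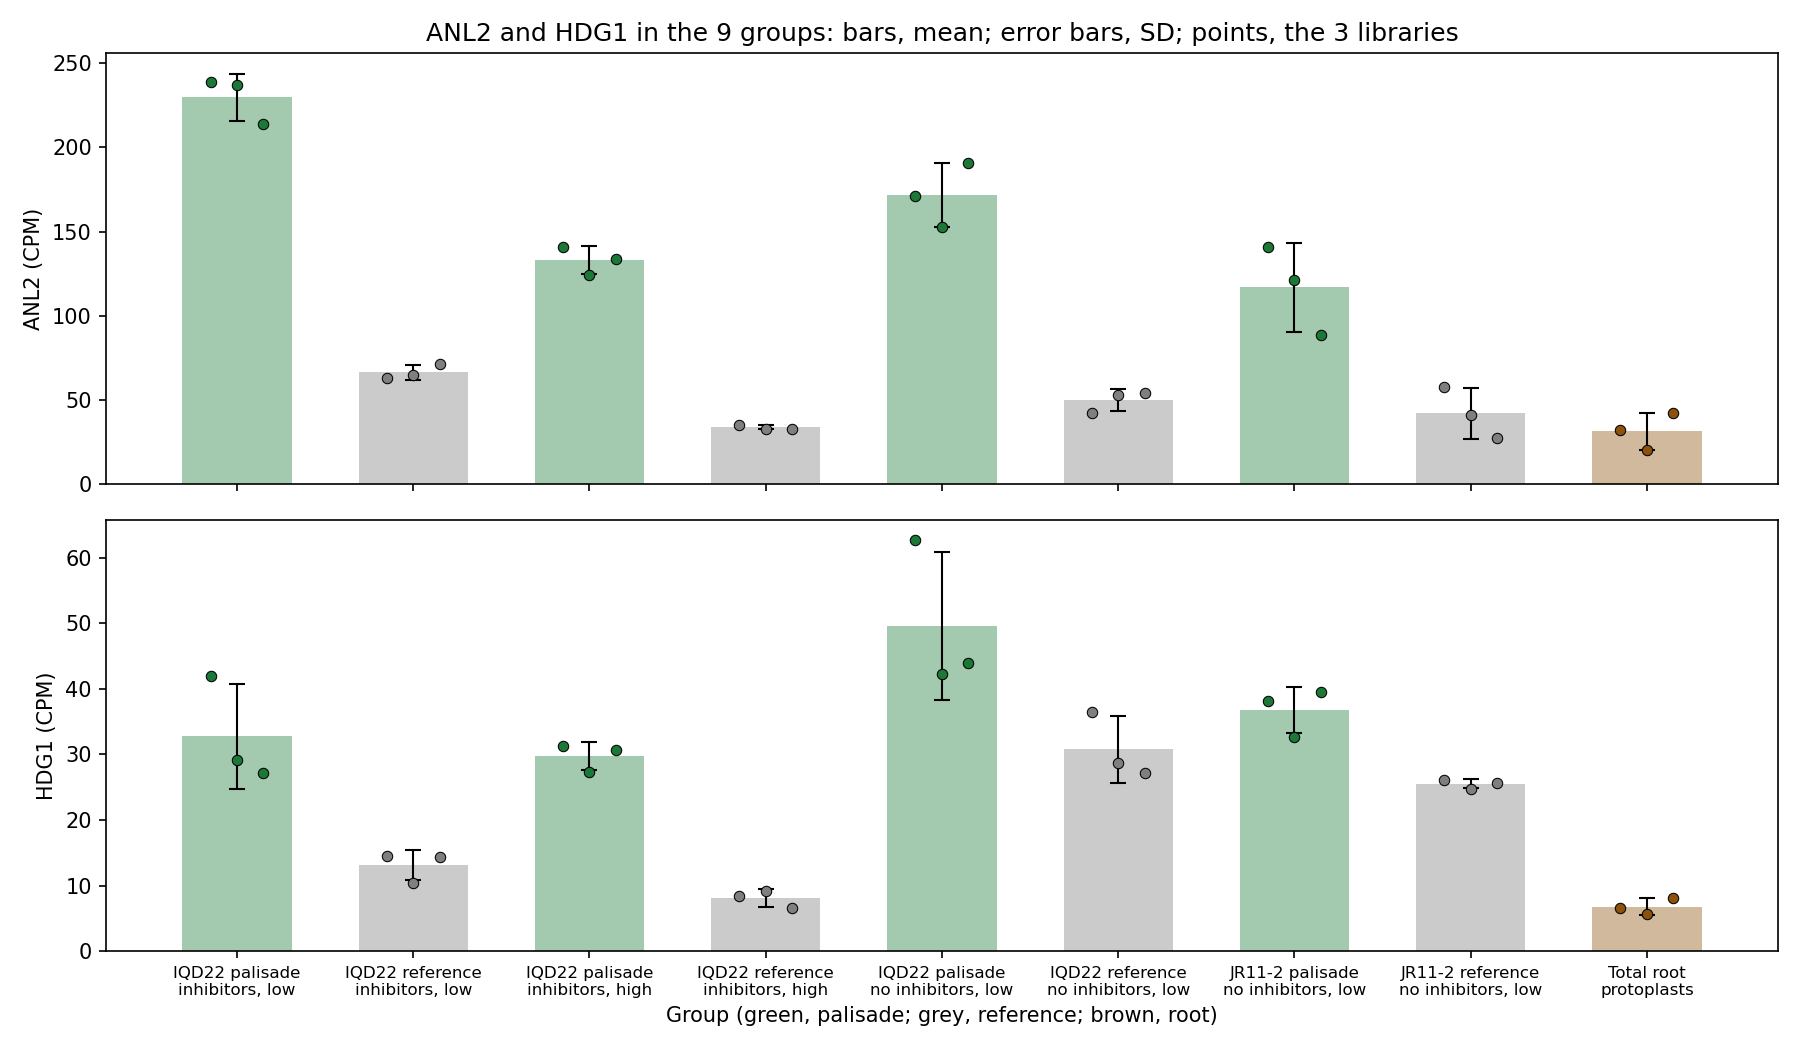
ANL2 (top) and HDG1 (bottom) in CPM (vertical axes, from 0) in the 9 groups; bars are means, error bars SD and points the 3 libraries. For ANL2 each palisade bar (117 to 230 CPM on average) stood above all reference bars (33.8 to 66.5 CPM), whereas HDG1 in palisade without inhibitors (49.6 CPM) was the highest group and the JR11-2 reference (25.5 CPM) was close to the palisade group after high light (29.8 CPM).

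Across all groups ANL2 ran from 230 ± 13.9 CPM (SD, n = 3) in the inhibitor, low light palisade to 31.7 ± 11.0 CPM in root. Between these lay palisade without inhibitors at 171 ± 19.0 CPM, palisade after high light at 133 ± 8.43 CPM and JR11-2 palisade at 117 ± 26.4 CPM, then reference with inhibitors in low light at 66.5 ± 4.40 CPM, reference without inhibitors at 50.0 ± 6.51 CPM, JR11-2 reference at 42.1 ± 15.1 CPM and reference after high light at 33.8 ± 1.16 CPM. The libraries of neighbouring groups overlapped for high light and JR11-2 palisade, and for every step from reference without inhibitors down to root. The other steps in this order had no overlap.

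HDG1, the closest relative of ANL2 in this set and a gene with a described role in cuticle formation, lies at chr3:22630331-22635155 on the plus strand and followed ANL2 with smaller and less even differences. With inhibitors in low light it read 41.9, 29.1 and 27.1 CPM in palisade and 14.5, 10.5 and 14.3 CPM in reference libraries (log2 fold change 1.17 ± 0.11, edgeR FDR = 7.63e-08). After high light it read 31.3, 27.4 and 30.7 CPM against 8.40, 9.24 and 6.58 CPM (log2 fold change 1.82 ± 0.11, edgeR FDR = 3.02e-15). In neither condition did the groups overlap. Without inhibitors the palisade libraries held 62.6, 42.3 and 43.9 CPM and the reference libraries 36.5, 28.7 and 27.1 CPM, a log2 difference of 0.64 with an edgeR FDR of 1.72e-05 that did not reach 2-fold. In JR11-2 it read 38.1, 32.7 and 39.5 CPM against 26.1, 24.8 and 25.7 CPM, a log2 difference of 0.50 (edgeR FDR = 2.82e-05) that was also below 2-fold. The palisade value was thus the higher in all 12 pools, by 1.32 to 4.66 times.

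**Figure D4:**
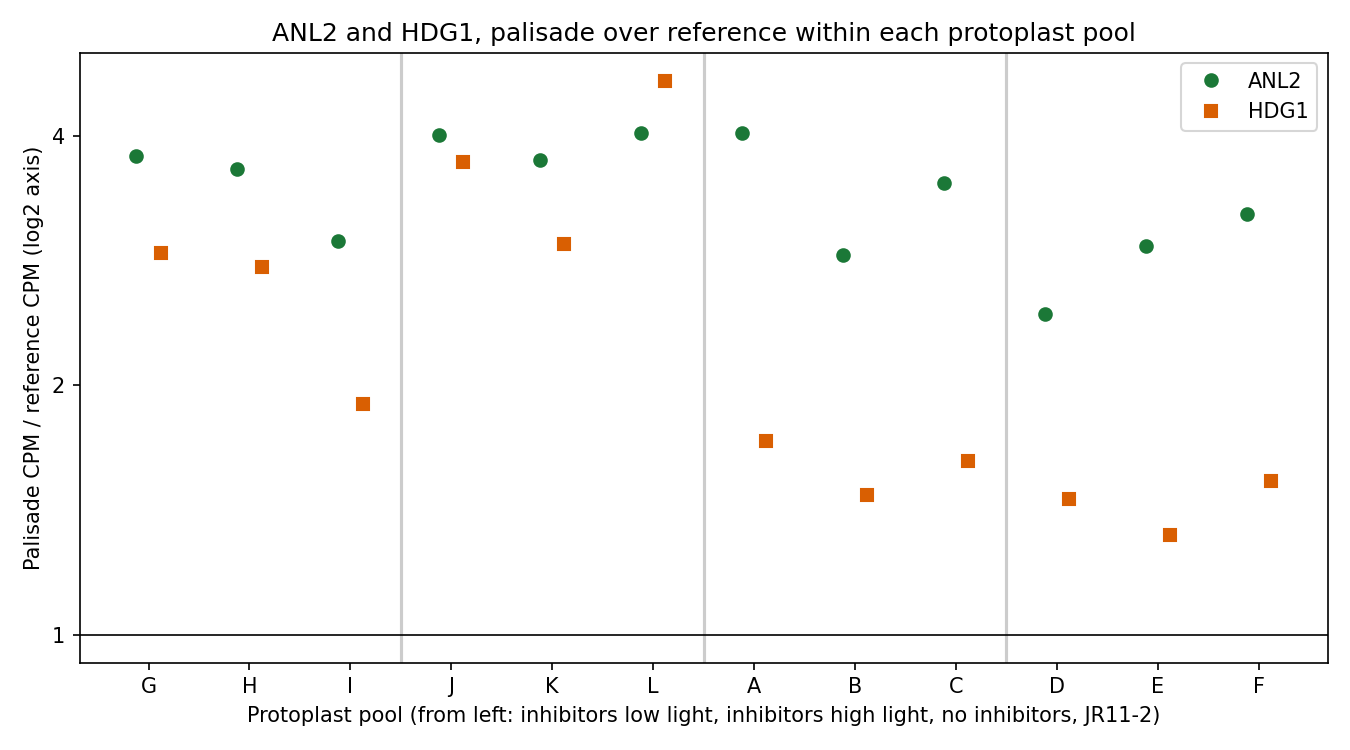
Palisade CPM divided by reference CPM (log2 axis) within each of the 12 protoplast pools, for ANL2 (circles) and HDG1 (squares). All points lie above 1; ANL2 stayed between 2.44 and 4.04, while HDG1 lay at 1.32 to 1.72 in the 6 pools made without inhibitors.

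The ratio of ANL2 to HDG1, per kb of exon, shows how unevenly the pair moved. It averaged 6.52 in palisade and 4.67 in reference with inhibitors in low light, 4.03 and 3.85 after high light, 3.21 and 1.51 without inhibitors, and 2.90 and 1.49 in JR11-2. In root it was 4.13. Single libraries ran from 0.966, in a JR11-2 reference library, to 7.35, in an inhibitor, low light palisade library. As a description across 24 leaf libraries that share pools and cell types, the Pearson r of their log2 CPM was 0.646, but 0.052 among the 12 palisade libraries and 0.168 among the 12 reference libraries.

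Set against all genes, the palisade comparisons called few genes higher. With inhibitors in low light 2.13% of the genes tested were called higher and 5.56% lower in palisade, and of the members 7 were tested, 2 higher and 0 lower, with a median log2 fold change of 1.00 against -0.03 over all genes tested. Without inhibitors 2.04% were higher and 6.70% lower, and 7 members were tested, 2 higher (ANL2, HDG11) and 1 lower (PDF2), with a median of 0.57. After high light 2.06% were higher and 6.36% lower, and 6 members were tested, 2 higher (ANL2, HDG1) and 0 lower, with a median of 1.03. In JR11-2 0.714% were higher and 1.44% lower, and 7 members were tested, with ANL2 alone higher, 0 lower and a median of 0.69. With at most 7 members tested, these counts rest on ANL2 and HDG1 and a few genes with very low counts. The medians fell on low-count members not called in the comparison (ATML1, HDG12 or PDF2), not on ANL2 or HDG1.

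**Figure D5:**
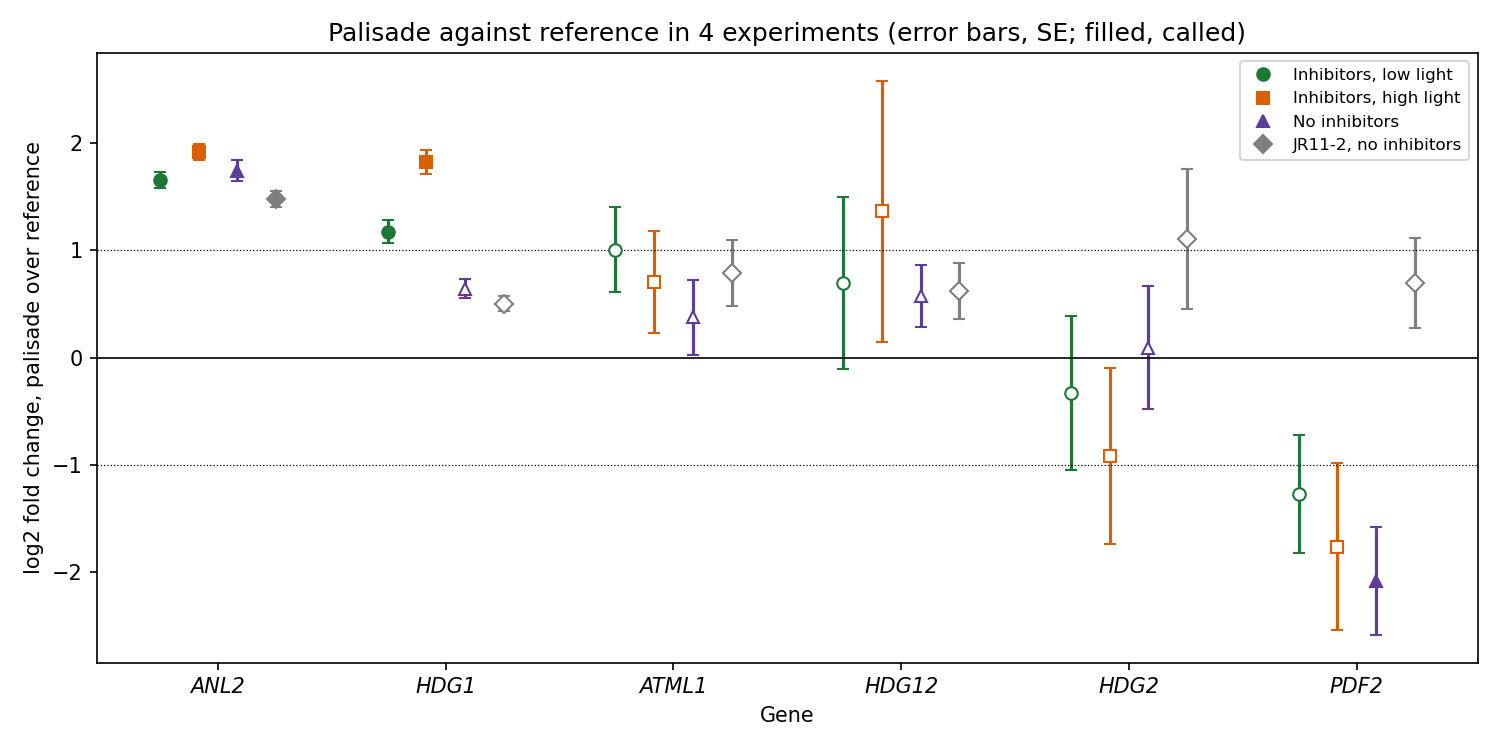
Log2 fold change of palisade over reference for the 6 members with the most leaf reads, in 4 experiments (symbols); error bars are SE, filled symbols are called genes and dotted lines mark 2-fold. ANL2 was called in all 4 experiments, HDG1 in 2, and PDF2 lay below 0 in the IQD22 experiments and above 0 in JR11-2.

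The epidermal identity genes ATML1 and PDF2, which act redundantly, were near the limit of detection in leaf cells. ATML1 had 6 to 53 reads per leaf library and PDF2 1 to 31. ATML1 read 1.41, 0.799 and 1.41 CPM in palisade and 0.846, 0.364 and 0.436 CPM in reference libraries with inhibitors in low light, and the groups overlapped (log2 fold change 1.00 ± 0.40, edgeR FDR = 0.0640). Its log2 fold changes in the other palisade comparisons were 0.37, 0.70 and 0.79, none of them called. PDF2 pointed the other way in IQD22. Without inhibitors it had 1, 6 and 4 reads in palisade and 8, 16 and 25 in reference libraries, a log2 fold change of -2.08 ± 0.51 (edgeR FDR = 0.00379). That call was lost without the pool term (edgeR FDR = 0.0631), with all 27 libraries in one fit (edgeR FDR = 0.0578) and without replicate 3 (edgeR FDR = 0.0758). With inhibitors PDF2 had 12, 1 and 4 against 23, 17 and 12 reads in low light (log2 fold change -1.27, edgeR FDR = 0.0906) and 2, 1 and 3 against 14, 2 and 9 reads after high light (log2 fold change -1.76, edgeR FDR = 0.0745). Without replicate 1 the low light difference was -2.27 and was called (edgeR FDR = 0.0150). In JR11-2 the counts were 10, 31 and 8 in palisade and 8, 17 and 4 in reference libraries (log2 fold change 0.69, edgeR FDR = 0.293).

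The epidermis markers moved with PDF2, and their part in its difference was not tested. All 6 are also in the surface list below. They summed to 3.14 to 3.95 CPM in palisade and 6.47 to 11.6 CPM in reference libraries of IQD22 without inhibitors, and to 5.85 to 11.6 CPM against 4.87 to 5.77 CPM in JR11-2; PDF1 was at 0 in both IQD22 groups. Without inhibitors 3 of the 4 tested epidermis markers were called lower in palisade, and in JR11-2 0 of 5 were called in edgeR, 3 having an unadjusted p under 0.05 and DESeq2 calling 0. Of all genes tested 6.70% were lower in palisade without inhibitors, and 0.714% higher and 1.44% lower in JR11-2. The palisade difference of PDF2 differed between the lines by -2.75 ± 0.66 on the log2 scale (interaction, edgeR FDR = 0.00436). It was the member called of 7 tested, while 15.2% of all genes were called for this interaction (1638 with a larger and 1532 with a smaller value in IQD22, or 1206 and 1807 with upper-quartile scaling). Lines and pools cannot be told apart here, since each line had pools of its own, and without pool C or pool E the interaction was not called (edgeR FDR = 0.0517 and 0.0575). For ANL2 the difference between lines was 0.28 (edgeR FDR = 0.118) and for HDG1 0.15 (edgeR FDR = 0.402).

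The trichome genes HDG11, HDG12 and HDG2 were as sparse. HDG11 had 3, 3 and 6 reads in palisade without inhibitors and 0 in each reference library, at least 1.40-fold higher when each reference library is set to a floor of 3 counts. edgeR called it at an FDR of 0.0157 and DESeq2 gave no adjusted p. Its 5, 0 and 3 against 3, 0 and 0 reads with inhibitors in low light were not called (edgeR FDR = 0.283). In JR11-2 HDG11 pointed the other way, with 3 reads in all palisade and 5 in all reference libraries (log2 fold change -0.82, edgeR FDR = 0.737). After high light it had too few reads to be tested. HDG2 had 0 to 20 reads per leaf library and was called in 0 leaf comparisons by edgeR and 0 by DESeq2, with 0 at an unadjusted p under 0.05. HDG12 ran from 0 to 46 reads per leaf library, was called in 0 palisade comparisons by edgeR and 0 by DESeq2 (1 at an unadjusted p under 0.05, in JR11-2), and differed between inhibitor conditions.

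HD-ZIP IV proteins recognise the L1 box, TAAATGCA or TAAATGTA, which was searched on both strands. It was found in the 250 bases before the annotated start of ANL2, 56 bases from the start, and of HDG2, 107 bases from the start, that is in 2 of 10 members, against 4.49% of 27443 protein-coding genes. Within 1000 bases it was found in 3 of 10 members, ATML1 (509 bases from the start) in addition, against 15.8% of genes. The ANL2 window is printed because ANL2 is the member whose level the results turn on; it covers chr4:304613-304862 of TAIR10.1 (RefSeq), is read on the minus strand, and has the L1 box, here on the opposite strand, in capitals.
ANL2 upstream: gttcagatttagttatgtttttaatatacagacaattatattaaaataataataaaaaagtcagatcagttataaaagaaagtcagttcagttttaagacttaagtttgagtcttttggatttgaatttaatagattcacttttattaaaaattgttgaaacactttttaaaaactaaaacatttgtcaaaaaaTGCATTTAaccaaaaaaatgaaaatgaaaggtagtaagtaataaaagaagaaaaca
A match of letters says nothing on whether a protein binds there.

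ANL2 was lower after 2 h of high light, the low light libraries being those of the palisade comparison above. In palisade it read 239, 237 and 214 CPM in low light and 141, 124 and 134 CPM after high light, a log2 difference of -0.90 ± 0.11 (edgeR FDR = 8.13e-05) that fell short of 2-fold and of a call. In reference cells it fell from 63.0, 65.0 and 71.4 CPM to 35.2, 33.2 and 33.2 CPM (log2 fold change -1.17 ± 0.11, edgeR FDR = 7.13e-06). The light groups did not overlap in either cell type. HDG1 read 41.9, 29.1 and 27.1 CPM in low light palisade against 31.3, 27.4 and 30.7 CPM after high light, which overlapped (log2 difference -0.24, edgeR FDR = 0.228), and in reference cells it was lower by a log2 difference of -0.90 (edgeR FDR = 0.00192), short of 2-fold. The light responses of HDG1 in palisade and reference differed by 0.63 ± 0.16 (interaction, edgeR FDR = 0.0156), and those of ANL2 by 0.24 ± 0.11 (edgeR FDR = 0.262). The HDG1 interaction was not called by DESeq2 (FDR = 0.100), without the pool term (edgeR FDR = 0.534), or without pool I (0.164) or pool L (0.172). Light and pool cannot be told apart, as low and high light came from separate pools.

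In palisade 8.07% of genes were called higher and 5.15% lower after high light (1501 and 958 genes, or 1292 and 1261 with upper-quartile scaling), and of 7 members 0 were called by edgeR, 1 had an unadjusted p under 0.05 and DESeq2 called 0. The members' median was -0.50 against -0.01 for all genes. In reference cells 10.1% were higher and 6.57% lower, and of 6 members ANL2 was called lower, with a median of -0.90 against -0.02. The light interaction was called for 5.54% of genes. In the anthocyanin list, genes of the pathway that the anl2 mutant is known for, 8 of 12 tested genes were called higher and 0 lower in palisade, and 7 of 11 higher and 0 lower in reference cells. F3H, flavanone 3-hydroxylase, rose from 11.5 ± 2.48 to 236 ± 34.2 CPM in palisade (log2 fold change 4.25, edgeR FDR = 1.17e-08) and from 3.93 ± 1.09 to 81.3 ± 15.2 CPM in reference cells (log2 fold change 4.18, edgeR FDR = 4.28e-08). ANL2 was thus lower and F3H higher after high light in reference cells, and in palisade too, where the ANL2 change was short of 2-fold. With inhibitors in IQD22 both were higher in palisade than in reference cells, whereas in JR11-2 the F3H difference was not called. A relation between ANL2 and F3H was not tested.

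Between inhibitor conditions HDG12 and HDG1 were the members that differed. HDG12 had 27, 27 and 25 reads in palisade without inhibitors and 2, 5 and 5 with them (log2 fold change 2.31 ± 0.43, edgeR FDR = 0.00182), and in reference cells 23, 15 and 18 against 2, 2 and 5 reads (log2 fold change 2.48 ± 0.50, edgeR FDR = 0.00199). No group overlapped its partner, and the JR11-2 libraries, also without inhibitors, held 20 to 46 reads. HDG1 in reference cells was higher without inhibitors, 36.5, 28.7 and 27.1 against 14.5, 10.5 and 14.3 CPM (log2 fold change 1.20 ± 0.18, edgeR FDR = 0.000265), and in palisade its log2 difference was 0.67 (edgeR FDR = 0.0246), below 2-fold. ANL2 was lower without inhibitors by log2 differences of -0.36 in palisade (edgeR FDR = 0.0759) and -0.45 in reference cells (edgeR FDR = 0.0123), neither called. Upper-quartile scaling, which shifted the median of all genes by -0.31 in palisade and -0.26 in reference cells, kept the direction of these members and left HDG1 in reference cells at 0.94, under 2-fold.

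Without inhibitors 19.1% of genes were called higher and 0.868% lower in palisade (3649 and 166 genes, or 3068 and 947 with upper-quartile scaling), and of 7 members HDG12 was called higher and 0 lower, with a median of 0.17 against 0.03. In reference cells 20.9% were higher and 1.16% lower (4122 and 230 genes, or 3573 and 1170 with upper-quartile scaling), and of 6 members HDG1 and HDG12 were called higher and 0 lower, with a median of -0.02 against -0.04. These shares are near the members' own. The inhibitor response of HDG1 differed between palisade and reference by -0.64 ± 0.15 (interaction, edgeR FDR = 0.00645), where 4.75% of genes were called; for ANL2 the value was -0.02 ± 0.13 (edgeR FDR = 0.996). The HDG1 interaction was not called without the pool term (edgeR FDR = 0.834) or without pool A (0.0617), C (0.120), G (0.0702) or H (0.0547). The inhibitor and no-inhibitor libraries came from separate pools, and inhibitor use and pool cannot be told apart.

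Root protoplasts, compared with the palisade and reference libraries made without inhibitors, held a different family mix. GL2, which acts in the non-hair cells of the root epidermis, lies at chr1:30036956-30041440 on the plus strand and had 852, 668 and 838 reads in the root libraries (18.2, 12.1 and 13.4 CPM) against 3 reads in all 24 leaf libraries, of which 21 held 0. It was at least 107-fold higher in root than in the reference cells without inhibitors, all at 0 and set to a floor of 3 counts per library. Against palisade, with 1 read in 3 libraries, the ratio was 887 (95% counting interval 159 to 35060). PDF2 had 351, 356 and 265 reads in root, or 6.05 ± 1.67 CPM, against 0.181 CPM in palisade (log2 fold change 5.03 ± 0.46, edgeR FDR = 3.04e-07) and 0.735 CPM in reference cells (2.98 ± 0.38, edgeR FDR = 1.11e-05). ATML1 had 226, 207 and 248 reads, or 4.18 ± 0.57 CPM, and was higher than in palisade (log2 fold change 2.34 ± 0.32, edgeR FDR = 1.45e-05) and reference cells (2.74 ± 0.33, edgeR FDR = 6.01e-06). The root libraries of these 3 genes lay above every leaf library.

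ANL2 and HDG1 went the other way. ANL2 in root, at 32.2, 20.5 and 42.4 CPM, was below palisade without inhibitors (log2 fold change -2.46 ± 0.26, edgeR FDR = 1.42e-06) and differed from reference cells by -0.70 ± 0.24 (edgeR FDR = 0.0195), short of 2-fold. HDG1, at 6.51, 5.69 and 8.16 CPM, was below both (-2.89 ± 0.23, edgeR FDR = 6.78e-08, and -2.22 ± 0.20, edgeR FDR = 4.98e-07). Per kb of exon ANL2 was still the highest member in root, with 46.5% of the summed level, before GL2 with 23.2%, HDG1 with 11.0%, PDF2 with 8.64%, ATML1 with 4.78%, HDG12 with 3.62% and HDG11 with 1.33%. HDG11 had 45, 35 and 72 reads in root and was higher than in palisade (log2 fold change 2.20 ± 0.48, edgeR FDR = 0.000889) and at least 6.75-fold higher than in the reference libraries, all at 0. HDG12 had 100, 92 and 187 reads and was higher than in reference cells (1.39 ± 0.34, edgeR FDR = 0.00220), while its difference from palisade, 0.80 (edgeR FDR = 0.0420), was under 2-fold. HDG2 had 34, 30 and 31 reads and was higher than in reference cells at the edge of the threshold (1.07 ± 0.46, edgeR FDR = 0.0486), a call that 10 of 13 alternatives lost.

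Root differed from the sorted leaf cells in a large share of all genes, 38.2% higher and 27.1% lower against palisade, and 36.7% higher and 27.4% lower against reference cells. The root cells were unsorted wild type and the leaf cells were sorted green cells of the IQD22 line. Organ, sorting and line therefore cannot be told apart in these comparisons. Of 8 members tested, 4 were higher and 2 lower against palisade (median 1.59, all genes 0.38), and 6 higher and 1 lower against reference cells (median 2.07, all genes 0.32). The epidermis markers moved with the members that were higher in root, and opposite to ANL2 and HDG1. They summed to 53.0 to 76.4 CPM in root against 3.14 to 3.95 and 6.47 to 11.6 CPM in the leaf groups compared. Of 6 tested, 5 and 4 were called higher. The part of these markers in the members' difference was not tested. Of the 4 root markers, WER and RHD6 were at 0 in all leaf groups. WER is a MYB regulator of non-hair fate and RHD6 a regulator of root hair growth. The others, COBL9 and SCR, had reads in both leaf groups compared. The list summed to 80.2 to 85.4 CPM in root against 15.9 to 23.2 CPM in palisade and 14.4 to 22.5 CPM in reference cells. Of 4 tested, 3 were called higher in root and 0 lower in each comparison.

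HDG5 and FWA were barely detected. HDG5 had 13 reads over the 24 leaf libraries and 3 in root, and FWA had 7 reads over the leaf libraries and 1, 2 and 3 in the root libraries, all at or under the floor of 3 counts per library (0.0478 to 0.227 CPM). A difference between groups was not detectable at this depth. FWA lies at chr4:13038360-13042464 on the plus strand, and the direct repeats before its start, the known site of its methylation, are printed because its near absence is the finding. Each of the copies, in capitals, has 38 bases, with 7 bases between them; the stretch covers chr4:13038249-13038331 of TAIR10.1 (RefSeq), from 111 to 29 bases before the annotated start.
FWA repeats: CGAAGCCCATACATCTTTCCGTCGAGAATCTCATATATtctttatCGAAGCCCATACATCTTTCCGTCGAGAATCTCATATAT
Of 11 genes of DNA methylation and demethylation known from FWA silencing, all 11 were tested between palisade and reference with inhibitors in low light and 0 were called by edgeR, 4 having an unadjusted p under 0.05 (1 higher, 3 lower) and DESeq2 calling 0. The largest differences were those of DDM1, a chromatin remodeller needed for DNA methylation, at -0.84 ± 0.25 (edgeR FDR = 0.0156) and of MET1, the maintenance methyltransferase, at -0.58 ± 0.11 (edgeR FDR = 0.000368), neither reaching 2-fold. In the other 3 palisade comparisons edgeR called 0 of the 11 as well, with 5 at an unadjusted p under 0.05 without inhibitors, 1 in JR11-2 and 4 after high light, and DESeq2 called 0. Over the 4 palisade comparisons 0.714% to 2.13% of all genes were higher and 1.44% to 6.70% lower. After high light DCL3, a Dicer protein of the RNA-directed methylation pathway, was lower in palisade (-1.56, edgeR FDR = 0.000675) and in reference cells (-1.19, edgeR FDR = 0.00223), where RDR2, an RNA polymerase of that pathway, was lower too (-1.46, edgeR FDR = 0.00252). These names, like those that follow, were taken after their values were seen. In root 4 of the 11 were called higher and 3 lower against palisade, where 38.2% of all genes were higher and 27.1% lower. Against reference cells 3 were higher and 2 lower, where 36.7% of all genes were higher and 27.4% lower. DDM1 was higher in both (2.76 and 2.38, edgeR FDR = 3.93e-06 and 1.62e-05) and NRPE1, a subunit of RNA polymerase V, lower in both (-1.66 and -1.39, edgeR FDR = 7.96e-05 and 0.000391). The palisade difference of MET1 was more negative in IQD22 than in JR11-2 (log2 value -0.52, edgeR FDR = 0.0437). This was the single call among the 11 for that interaction, where 15.2% of all genes were called, and DESeq2 called 0. Methylation itself was not measured.

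The remaining HD-ZIP IV genes, HDG3, HDG4, HDG7, HDG8, HDG9 and HDG10, had too few reads to be tested in any leaf comparison. Between root and leaf 3 of the 6 were tested and 2 were higher in root. Of all genes 38.2% were higher in root against palisade and 36.7% against reference cells. HDG7 had 140 to 343 reads per root library (3.98 ± 1.47 CPM) and 0 in the IQD22 leaf libraries, with 4 reads in JR11-2 palisade. HDG8 had 29 reads over the root libraries. HDG10 had 0 reads in every library.

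The surface list of 24 genes for cuticle and epidermal differentiation, the tissue in which ATML1, PDF2 and HDG1 are known to act, was in part lower in palisade. With inhibitors in low light 19 were tested, 0 were higher and 5 lower in palisade (DESeq2, 3 lower), with a median of -0.79 against -0.03 over all genes. Of all genes tested there, 2.13% were higher and 5.56% lower. CER6, a fatty acid elongase for wax, measured 1.19 ± 0.37 CPM in palisade and 4.60 ± 1.19 CPM in reference cells (log2 fold change -2.04 ± 0.26, edgeR FDR = 4.71e-06). KCS1, also an elongase, measured 0.297 ± 0.15 against 1.05 ± 0.28 CPM (-1.86 ± 0.50, edgeR FDR = 0.00723). CER5, a wax transporter, fell by 1.66 ± 0.33 on the log2 scale (edgeR FDR = 0.000629), and FDH, an elongase that keeps organs from fusing, fell by 1.61 ± 0.34 (edgeR FDR = 0.000929). In JR11-2 19 were tested, 0 were higher and 1 lower, ALE2 (a receptor-like kinase gene of epidermal differentiation, named here after its value was seen, log2 fold change -1.14, edgeR FDR = 1.37e-05), with a median of 0.20, and CER6 there was at 1.00 (edgeR FDR = 0.000809, under 2-fold). The palisade difference of CER6 differed between the lines by -2.93 ± 0.30 (interaction, edgeR FDR = 3.97e-08). Without inhibitors the list had 1 higher and 4 lower of 19, and after high light 2 higher and 4 lower of 16. All genes tested stood at 0.714% higher and 1.44% lower in JR11-2, 2.04% and 6.70% without inhibitors, and 2.06% and 6.36% after high light. Against root, 17 of 22 were higher in root than in palisade and 4 lower, where 38.2% of all genes were higher and 27.1% lower. Than in reference cells, 16 of 21 were higher in root and 1 lower, where 36.7% of all genes were higher and 27.4% lower.

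Of the 15 hair patterning genes, the network around GL2, 8 were tested with inhibitors in low light. In that comparison 2.13% of all genes were higher in palisade and 5.56% lower. Of the 8, 2 were higher and 0 lower (median -0.07, all genes -0.03). They were TRY, at 3.33 ± 1.11 against 0.711 ± 0.21 CPM (log2 fold change 2.08 ± 0.28, edgeR FDR = 1.05e-05), and ETC2, at 4.54 ± 1.20 against 1.37 ± 0.49 CPM (1.59 ± 0.22, edgeR FDR = 1.2e-05), both single-repeat MYB proteins that inhibit trichome formation. Both were called in palisade without inhibitors and after high light as well, whereas in JR11-2 TRY was called (1.74, edgeR FDR = 0.00298) and ETC2 was not (0.71, edgeR FDR = 0.0687). GL2, on which this network acts, was at 0 in the same inhibitor, low light palisade libraries. In root 9 of 15 were higher and 5 lower against palisade, where 38.2% of all genes were higher and 27.1% lower. Against reference cells 9 were higher and 4 lower, where 36.7% of all genes were higher and 27.4% lower. Of the 14 anthocyanin genes, 10 were tested with inhibitors in low light and F3H alone was higher in palisade (log2 fold change 1.42 ± 0.16, edgeR FDR = 1.15e-06), with 0 lower and a median of 0.28. After high light 13 were tested, 5 higher and 1 lower, where 2.06% of all genes were higher and 6.36% lower. F3H in JR11-2 was at 0.35 (edgeR FDR = 0.151), and the difference between lines was 1.09 ± 0.20 (interaction, edgeR FDR = 0.000364).

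The genes whose level followed ANL2 most closely over the 24 leaf libraries, among 15827 genes of at least 1 CPM on average, were HAT3, an HD-ZIP II gene for the upper leaf side (Pearson r of log2 CPM 0.960), EMB25 (0.958) and PPD6 (0.948). These libraries share pools and cell types, so the values describe a shared pattern only. For ATML1 the closest were AT1G28660 (0.674), TK1b (0.673) and ATL15 (0.670), on counts of 6 to 53. GL2 had too few leaf reads for such a comparison.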

How the data were processed

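RNA from sorted protoplasts was made into stranded TruSeq libraries and sequenced as single reads of 50 bases by the authors. Per the labels and methods, the authors used CASAVA 1.8.2, mapped reads to TAIR10 with TopHat 2.0.9 with strand kept, and counted them per gene with HTSeq 0.6.1, leaving out reads that do not lie wholly within the gene. The deposited values are raw counts per gene. Rows that name no gene held 6.95% to 12.5% of each library and were left out, as were 133 chloroplast and 146 mitochondrial genes (0.0103% to 0.0782% of counts), which left 33323 genes. Libraries held 15074702 to 38792923 counts, and 3 counts, the floor used, equalled 0.0478 to 0.227 CPM. These floors, and the intervals, reflect counting error alone.

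Counts were tested with edgeR 4.0.16 (R 4.3.3), quasi-likelihood F-test, TMM scaling, keeping genes that reached 2 counts in 3 or more libraries, Benjamini-Hochberg over all genes tested. The SE is the log2 fold change over the square root of F. Interactions were called on FDR alone. The pool, given in the labels as shared by both sorts of a replicate, was a block in palisade comparisons and interactions. Same-pool libraries deviated together (mean correlation 0.249 with inhibitors in low light, 0.422 without inhibitors, 0.436 in JR11-2 and 0.247 after high light). Light, inhibitor and root comparisons had no block. Nothing in the sources says whether the root replicates were grown apart, so their p-values may measure technical spread. Alternatives were upper-quartile and RLE scaling, DESeq2 1.42.0, other count filters, all 27 libraries in one fit, the block left out or added, and each pool or library left out. The scripts were tested on simulated data.

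Named were all 10 members, the other HD-ZIP IV genes as a list, up to 4 called genes with the largest change in each gene list with inhibitors in low light (or the 2 largest where none was called), and the 3 genes closest to ANL2 and ATML1 by correlation of log2(CPM + 0.5). The members and lists were chosen with earlier results of these data known.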

Additional observations from a re-analysis of the deposited data

Results flagged for a closer look

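Among the members, 3 differences between groups passed the interaction test. The light response of HDG1 was less negative in palisade than in reference cells by 0.63 on the log2 scale. The difference of HDG1 between inhibitor conditions was smaller in palisade, by a log2 value of -0.64. The palisade difference of PDF2 was more negative in IQD22 than in JR11-2, by a log2 value of -2.75. Without the pool term none of them was called (edgeR FDR = 0.534, 0.834 and 0.242), each was also lost without single pools, and none of these factors varied within a pool.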

How the results depend on the processing

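Of 1018 single-gene values recomputed under the alternatives, 981 kept their side of the threshold, 938 of them with their sign and 43 with a changed sign at an FDR of 0.05 or more in both fits, 29 were no longer called, 8 became called and 0 called values turned direction. Of 154 counts of called members, 130 stayed within 1.5 times the count given and 24 did not, and the cause of a move was not tested unless fewer libraries or genes were used. For palisade against reference without inhibitors, the count went from 3 to 1 with a minimum of 10 counts, and was 1 to 3 with replicates left out. In JR11-2 it went from 1 to 0 without the pool block. For high light against low light it went from 0 to 1 in palisade with upper-quartile scaling, and in reference cells from 1 to 0 with all 27 libraries in one fit, and was 1 to 2 with libraries left out. Without against with inhibitors in reference cells, it went from 2 to 1 with upper-quartile scaling. For root against reference it was 4 to 7 with libraries left out, 4 without root replicate 1 or 2. The light interaction went from 1 to 0 with DESeq2 and without the pool block, and was 0 to 1 with pools left out. The inhibitor interaction went from 1 to 0 without the block and was 0 to 1 with pools left out, and the line interaction went from 1 to 0 without the block and was 0 to 2 with pools left out (ANL2 and PDF2 without pool B). Upper-quartile scaling moved the median of all genes by -0.11 (light, palisade), -0.31 and -0.26 (inhibitors), 0.20 and 0.14 (root). In comparisons matched by replicate number only, adding the number as a replicate block gave 0, 1, 1, 2, 6 and 6 called members in place of 0, 1, 1, 2, 6 and 7 (HDG2 lost in root against reference); same-numbered libraries correlated by 0.03 and 0.04 (light), 0.13 and 0.08 (inhibitors) and -0.06 and -0.10 (root), so the number was not taken as a pairing. At the depth of these libraries, HDG5, FWA and leaf GL2 could not be compared.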
